A study of Mus musculus with 221 samples.

Results

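The transcripts described here encode 10 cell cycle regulators that act at the exit from meiosis and in the first cleavages of the mouse embryo. They are the cyclins Ccnb1, Ccnb2, Ccna2, Ccne1 and Ccne2, the phosphatase Cdc25b, and the kinases Wee2, Mos, Plk1 and Aurka, taken by name from a table of 55291 genes, and all 10 were in it. RNA was measured in single early 2-cell embryos by Smart-seq2, which copies polyadenylated RNA from 1 embryo and amplifies it by PCR. The embryos came from in vitro fertilization of oocytes of superovulated C57BL/6N-mtST females, which carry nuclear DNA of C57BL/6N and the mitochondrial DNA of the Staudach line, with frozen and thawed sperm of C57BL/6N males. Before sperm was collected the sires had received either a high-fat (HFD) or a low-fat (LFD) diet, and the mothers were not exposed. There were 99 LFD embryos, and of the HFD embryos 38 carried the numbers 31 to 70 in their labels and 84 other numbers. The labels do not set those 38 apart, so the cut at these numbers is not a group that the labels give. Fits without them hold fewer HFD embryos, so a call lost there cannot be told apart from an effect of fewer embryos. Neither diet group carries an engineered allele, so the diet groups differ in the diet of the sire alone as far as the labels say. Per the study's methods, a few males per diet were used and each fertilization date had an HFD male and an LFD male. The labels name neither sire nor date for an embryo, so embryos were taken as replicates, and a difference between the diets cannot be told apart from a difference between their few sires.

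Cyclins bind and activate cyclin-dependent kinases (CDKs). B-type cyclins with CDK1 drive entry into M phase, and their destruction by the anaphase-promoting complex ends it, while A-type and E-type cyclins serve DNA replication and the approach to M phase. The mouse egg waits in the second meiotic metaphase, held there by Mos and the MAP kinase pathway, until fertilization starts the exit, and the divisions that follow run largely on RNA and protein stored in the oocyte until the embryonic genome is switched on at the 2-cell stage.

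Total counts per embryo ran from 1937251 to 17246791 (median 5706066), and 11364 to 21638 genes had a count. The summed level of 8 oocyte and early embryo markers (Zp3, Gdf9, Bmp15, Oosp1, Nlrp5, Zar1, Dppa3 and Padi6) had a median of 6503 CPM (counts in each 1000000 of an embryo's total) in HFD and 6451 in LFD embryos, and none of the 8 had a median of 0. Of 10 markers of cumulus and granulosa cells, 7 in HFD and 8 in LFD embryos had a median of 0, Foxl2 and Fshr among them, and the summed level had a median of 16.8 CPM in HFD (0.459 to 53.4) and 15.4 CPM in LFD embryos (0 to 57.8). The summed level of 12 macrophage markers reached 6151 CPM in HFD and 155.6 CPM in LFD embryos, with medians of 76.4 and 77.1. For 7 genes of the Y chromosome together the median was 42.8 CPM in HFD and 11.4 CPM in LFD embryos. Reads were copied by PCR and carry no identifier of the molecule they came from, so errors given below are spreads between embryos and not counting errors.

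Stored messages of the oocyte are lengthened at their poly(A) tail through short U-rich letters near the 3′ end, the cytoplasmic polyadenylation elements, and the oligo-dT step of Smart-seq2 copies RNA from that tail. The longest protein-coding transcript of each member in GENCODE M21 (build GRCm38) was therefore searched, on the transcript strand only, for TTTTAT or TTTTAAT in its last 150 bases, and for the polyadenylation signal AATAAA or ATTAAA in its last 40. Of the 10 members, 9 had the signal, Aurka being the exception, and 70.3% of 21775 protein-coding genes had it. The element was found in 4 of the members, Ccnb1, Ccne1, Wee2 and Aurka, and in 23.3% of 18723 genes with a 3′ UTR of at least 150 bases. Mos has a 3′ UTR shorter than that window, and Ccnb2, Ccna2 and Ccne2 held the element only farther from the end. The copy nearest the end of each transcript is shown within 30 bases, with the element in capitals, because the level of these messages is what the following comparisons rest on.
Ccnb1, chr13:100778776-100778805, minus strand: tctcatttgctgTTTTAATttatacatctg
Ccne1, chr7:38098002-38098031, minus strand: gtgctgctatgtctatcaatTTTTAATaaa
Wee2, chr6:40466784-40466813, plus strand: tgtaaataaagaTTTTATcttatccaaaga
Aurka, chr2:172356237-172356266, minus strand: ttaaaggctattTTTTATgttggagttctg
In Ccne1 the element overlapped the signal AATAAA, in Wee2 it followed the signal, and in Ccnb1 and Aurka no signal lay within the bases shown. A match is a description of the letters and not a measured site.

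Levels of different genes were compared per exon length, as TPM (transcripts in each 1000000) computed from the length in the count table. That length joins the exons of all transcripts of a gene. It is 4217 bases for Ccnb1 and 2531 for Aurka, against 2489 and 1905 in their longest protein-coding transcripts. For Plk1 it is 2199 in both. The order and differences below hold for the joined length and were not computed with another, which could change them. Wee2, the oocyte kinase that phosphorylates and restrains CDK1, had the highest median TPM of the members (1519, range 149 to 2309 over all embryos). It was followed by Ccnb1 (702), Ccna2 (488), Ccne1 (382), Plk1 (223.2), Aurka (215), Ccnb2 (174), Ccne2 (100), Cdc25b (20.9) and Mos (4.71). Wee2 was above Ccnb1 in 96.8% of embryos, and the median difference of 1.11 in log2 TPM was larger than its SD over embryos (0.47). The same held for Ccne1 over Plk1 (89.6% of embryos, 0.80, SD 0.64), Ccne2 over Cdc25b (99.1%, 2.22, SD 1.28) and Cdc25b over Mos (93.7%, 2.37, SD 1.75). The other neighbours in this order did not differ by more than their spread. Plk1 and Aurka, which changed places in 45.2% of embryos, were the closest of them, with a median difference of 0.08 in log2 TPM (SD 0.48).

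**Figure D1:**
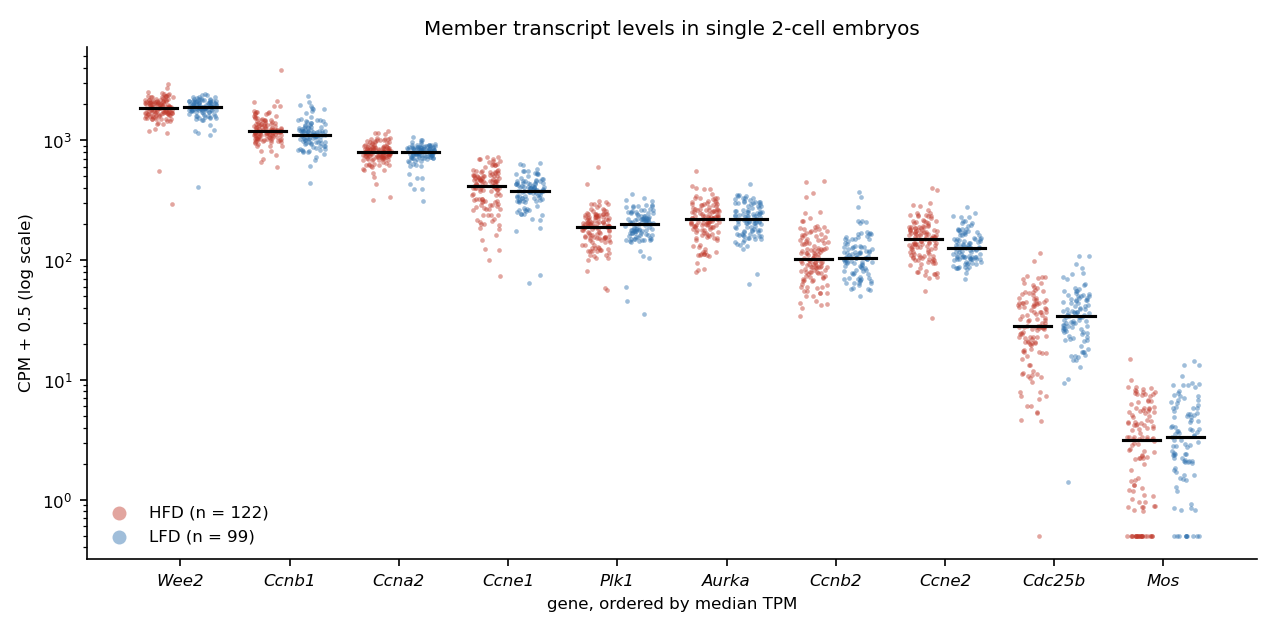
CPM with 0.5 added, on a log axis, of each member in every HFD embryo (red) and LFD embryo (blue, n = 99), with black lines at the medians and genes ordered by median TPM. Wee2, Ccnb1 and Ccna2 lie in narrow bands at medians from 792 to 1876 CPM, Cdc25b and Mos are low and wide, and HFD and LFD embryos overlap for every member.

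The members differed widely in how much they varied between embryos. Ccna2 was the most even, with an upper quartile 1.21 times the lower quartile of CPM, and Wee2 followed at 1.24 times and Ccnb1 at 1.32 times. Ccnb2 (1.77 times) and Cdc25b (2.11 times) were the most spread of those detected in nearly every embryo. The biological coefficient of variation estimated by edgeR was below that of genes of like level for 7 of the 10 members, with 0.199 against 0.349 for Ccna2 and 0.234 against 0.344 for Wee2. It was above it for Ccnb2 (0.481 against 0.389), for Cdc25b (0.613 against 0.496) and, slightly, for Mos (1.11 against 1.09). The share of all genes below their like-level value was not computed, so the count of 7 is not read as a trait of the members. No count of Mos was found in 34 embryos, 24 HFD and 10 LFD, at a median of 16 counts per embryo.

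The main comparison asked whether the diet of the sire was seen in these transcripts. Only Ccne2 passed the test across all genes, and it was higher in HFD embryos by 1.18-fold (95% interval 1.08 to 1.29). Of 14820 genes that passed the filter on low counts, 314 were called at a false discovery rate of 0.05 (2.12%), 159 of them higher (1.07%) and 155 lower (1.05%) in HFD embryos, against 1 of the 10 members, all of which passed that filter. The median log2 fold change was 0.04 over the members and 0.0044 over all genes, and its median size was 0.10 in both. All values below are log2 fold changes of HFD over LFD from edgeR's quasi-likelihood test with Benjamini-Hochberg adjusted p over all genes.

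The B-type cyclins give CDK1 its activity in M phase. Ccnb1 (chr13:100778650-100786570) ran from 598 to 3828 CPM with a median of 1194 in HFD, and from 437 to 2331 with a median of 1114 in LFD embryos. The groups overlapped, and 64.8% of HFD embryos lay above the LFD median. Its log2 fold change was 0.14 ± 0.05 (SE), with an unadjusted p of 0.0108 and an adjusted p of 0.185 by edgeR, and it was called without the tenth of embryos with the fewest genes (0.17, adjusted p = 0.0428). Reads of Ccnb1 are partly shared with its processed copy Ccnb1-ps, which holds 13.1% of its stretches of 150 bases and had a median of 4.53 CPM, so its level is uncertain by reads left out as aligning to both. Ccnb2 (chr9:70407692-70421547) ran from 33.3 to 453 CPM with a median of 101.2 in HFD, and from 49.4 to 369 with a median of 103.8 in LFD embryos. Here 6 HFD embryos lay below the lowest LFD embryo and 2 above the highest. Its log2 fold change was 0.09 ± 0.10, with an adjusted p of 0.765 by edgeR.

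Cyclin A2 acts in replication and in the early part of M phase, and its message was the least variable. Ccna2 (chr3:36564865-36572150) ran from 319 to 1190 CPM with a median of 792 in HFD, and from 309 to 1057 with a median of 799 in LFD embryos. The medians differed by less than the spread of either group, with 47.5% of HFD embryos above the LFD median. The fitted log2 fold change was 0.05 ± 0.04, with a 95% interval of -0.02 to 0.13 and an adjusted p of 0.601 by edgeR.

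E-type cyclins bind CDK2 at the start of DNA replication. Ccne2 (chr4:11191351-11204779) ran from 32.3 to 396 CPM with a median of 151 in HFD, and from 68.9 to 278 with a median of 125.4 in LFD embryos. The groups overlapped over most of their range, but 67.2% of HFD embryos lay above the LFD median and 5 above the highest LFD embryo, while 2 lay below the lowest. The log2 fold change was 0.24 ± 0.07, with an adjusted p of 0.0258 by edgeR. On the scale of log2 CPM its mean was 7.18 ± 0.56 (SD) for HFD and 7.01 ± 0.42 for LFD, so the difference was smaller than 1 SD of single embryos in either group. Ccne1 (chr7:38097984-38107534) ran from 73.3 to 726 CPM with a median of 417 in HFD, and from 63.5 to 648 with a median of 379 in LFD embryos. Of the HFD embryos, 61.5% lay above the LFD median and 8 embryos above the highest LFD embryo. Its log2 fold change was 0.12 ± 0.07, with an adjusted p of 0.454 by edgeR.

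The call of Ccne2 depended on the fit. It was lost when the stage ratio described below was a covariate (log2 fold change 0.14, adjusted p = 0.238, edgeR), without the 38 HFD embryos numbered 31 to 70 (0.18, adjusted p = 0.222, edgeR), by limma-voom (0.20, adjusted p = 0.0772) and by limma-voom with ranges of 10 numbers within each diet as a random effect (0.20, adjusted p = 0.265), and kept in the other 9 alternatives run, so that the log2 fold change ran from 0.14 to 0.31 with HFD higher in all 13. Among the fits that kept it, those with the level of Y-linked genes (0.23, adjusted p = 0.0388, edgeR) or of macrophage markers (0.24, adjusted p = 0.0342, edgeR) as covariate gave nearly the same value. The 38 HFD embryos had a median of 178 CPM, the other 84 HFD embryos 139 CPM, and the 39 LFD embryos of the same numbers 123.8 CPM. Exons of Ccne2 share 609 bases, 17.4% of their length, with exons of Ints8 on the opposite strand. The counts were made with a strand setting while Smart-seq2 does not mark strand, so reads of those bases cannot be told apart by gene. Ints8 had a median of 43.3 CPM and a log2 fold change of 0.11 (adjusted p = 0.47, edgeR).

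Wee2 and Cdc25b act on the same inhibitory phosphates of CDK1, the first as a kinase that adds them and the second as a phosphatase that removes them. Wee2 (chr6:40439088-40466813) ran from 292 to 2961 CPM with a median of 1854 in HFD, and from 409 to 2449 with a median of 1876 in LFD embryos. Its log2 fold change was 0.03 ± 0.05, with a 95% interval of -0.06 to 0.12 and an adjusted p of 0.857 by edgeR. For Wee2, as for Ccnb2 and Ccna2, the median CPM lay slightly below that of LFD embryos while the fitted change was above 0. Cdc25b (chr2:131186949-131198497) ran from 0 to 112.9 CPM with a median of 27.4 in HFD, and from 0.918 to 107.8 with a median of 33.6 in LFD embryos. The embryo at 0 was HFD, and 40.2% of HFD embryos lay above the LFD median. Its log2 fold change was -0.20 ± 0.12, with an interval of -0.45 to 0.04 and an adjusted p of 0.516 by edgeR. The HFD embryos numbered 31 to 70 had a median of 21.6 CPM and the other HFD embryos 31.1 CPM, and without the former the log2 fold change was -0.01 (adjusted p = 0.994). In the other direction, it was -0.36 by limma-voom (adjusted p = 0.164), -0.38 with ranges of 10 numbers as a random effect (adjusted p = 0.111) and -0.42 with the embryo number as a replicate block (adjusted p = 0.0132), where it was called. The last of these fits held only the 188 embryos whose number occurs in both diets.

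Mos, the kinase that starts the MAP kinase cascade of the metaphase arrest, was close to its limit of detection. Mos (chr4:3870657-3872105) ran from 0 to 14.4 CPM with a median of 2.65 in HFD, and from 0 to 13.8 with a median of 2.85 in LFD embryos. The log2 fold change was -0.21 ± 0.24, and its interval of -0.68 to 0.26 was the widest of the members (adjusted p = 0.793, edgeR).

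Plk1 and Aurka, the kinases of mitotic entry and of spindle poles, differed little between the diets. Plk1 (chr7:122159439-122169873) ran from 55.7 to 593 CPM with a median of 190 in HFD, and from 35.1 to 356 with a median of 200 in LFD embryos. The log2 fold change was -0.04 ± 0.06 (interval -0.16 to 0.08, adjusted p = 0.843, edgeR). Aurka (chr2:172356190-172370535) ran from 78.9 to 551 CPM with a median of 218.8 in HFD, and from 62.9 to 431 with a median of 217.5 in LFD embryos. The log2 fold change was -0.01 ± 0.06 (interval -0.13 to 0.12, adjusted p = 0.984, edgeR). For both, as for Wee2 and Ccna2, the interval holds no change beyond 0.16 in either direction on the log2 scale.

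**Figure D2:**
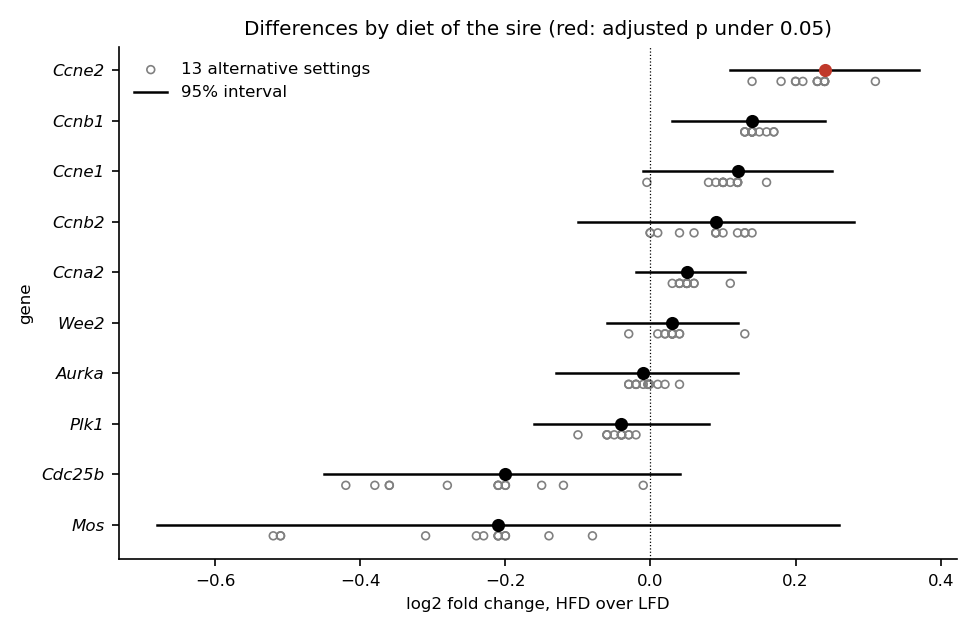
Log2 fold change of HFD over LFD for each member (filled circles, with 95% intervals as lines) and its value under 13 alternative settings (open circles). Ccne2, in red, is the member with an adjusted p under 0.05, and the intervals of all others but Ccnb1 include 0.

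Because the labels give no batch, levels were also compared in steps of 10 along the embryo numbers, which gave 11 ranges and is no record of when an embryo was handled. Mean Ccne2 was higher in HFD embryos in 10 of the 11 ranges, with differences from -0.17 to 0.69 in log2 CPM and a median of 0.21. Mean Cdc25b was lower in HFD embryos in 10 of the 11, with differences from -1.79 to 0.16 and a median of -0.40. The difference of -1.79 was in the range 41 to 50, where HFD embryos had a mean of 3.30 and LFD embryos 5.09. Mean Ccnb1 was higher in HFD embryos in 8 ranges and mean Ccne1 in 7, while mean Plk1 was lower in 9. For Ccnb2, Ccna2 and Aurka the count was 5 higher and 6 lower, and for Wee2 and Mos 4 and 7.

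**Figure D3:**
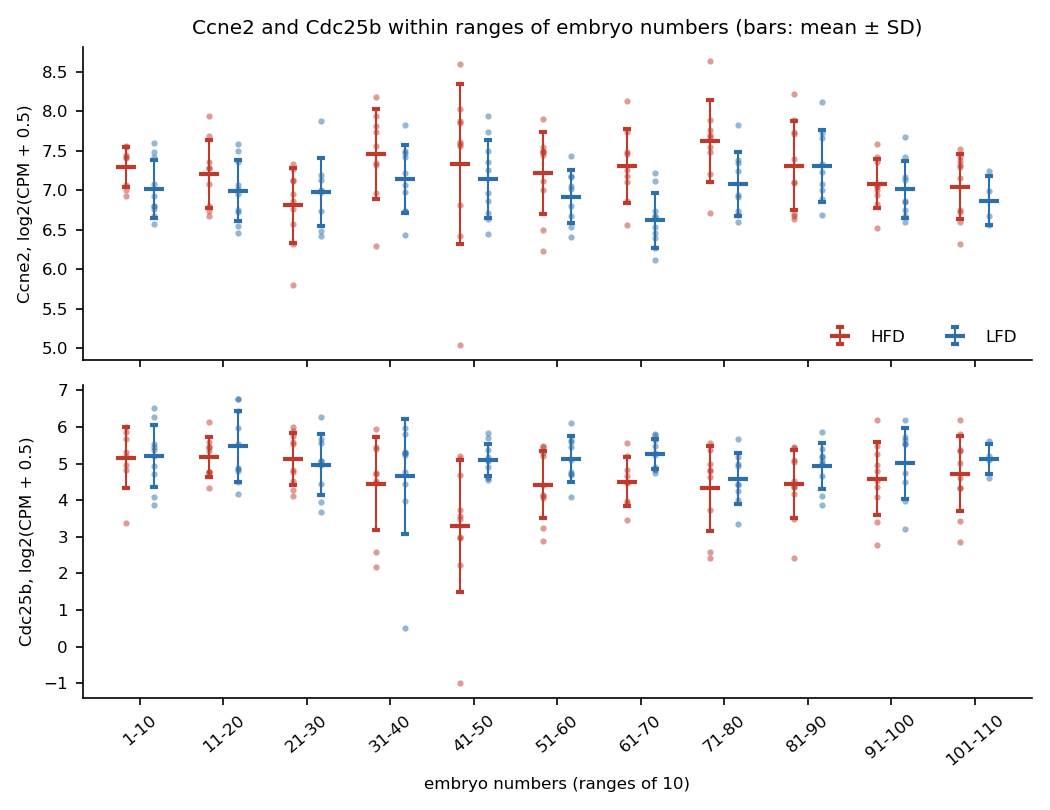
Log2(CPM + 0.5) of Ccne2 (top) and Cdc25b (bottom) in HFD (red) and LFD (blue) embryos within ranges of 10 embryo numbers, with bars for the mean ± SD. Ccne2 is higher in HFD in 10 of 11 ranges and Cdc25b lower in 10 of 11, and embryos of the diets overlap in most ranges. HFD embryos numbered above 110, where there are no LFD embryos, are not shown.

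The pathway around the members was described with 8 lists holding 90 other cell cycle genes in the table, of which 87 passed the filter. By diet, 4 of the 87 were called (4.6%, against 2.12% of all genes), and all were lower in HFD embryos. Of the anaphase-promoting complex, its activators and inhibitor, 2 of 19 fell. Anapc1, the largest subunit of the complex, had a median of 102.3 CPM in HFD and 131 in LFD embryos (log2 fold change -0.35 ± 0.06, adjusted p = 9.6e-06, edgeR). Fzr1, the activator that keeps the complex at work after M phase, had 48.2 against 68.2 CPM (-0.44 ± 0.11, adjusted p = 0.0058). Of 8 genes of the spindle checkpoint, securin and separase, 1 fell, Espl1, the protease that cuts cohesin at anaphase (110.5 against 135 CPM, -0.29 ± 0.07, adjusted p = 0.00888). Of 10 replication licensing genes, 1 fell, Cdt1, which loads the replicative helicase (89.1 against 106.5 CPM, -0.27 ± 0.07, adjusted p = 0.00616). Anapc1 was called in all 13 alternatives, Cdt1 in 12, Espl1 in 11 and Fzr1 in 9. Without HFD embryos numbered 31 to 70, Cdt1 (-0.17, adjusted p = 0.164), Espl1 (-0.21, adjusted p = 0.13) and Fzr1 (-0.38, adjusted p = 0.0883) were not called.

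The other lists had no call by diet. The 14 other CDKs, cyclins and CDK-binding subunits had a median log2 fold change of 0.11, and the smallest p among them belonged to Cdk7, the CDK-activating kinase (0.17 ± 0.07, adjusted p = 0.198, edgeR), and Spdya (0.49 ± 0.21, adjusted p = 0.241). The 9 other CDK inhibitors, kinases and phosphatases of the inhibitory sites had a median of 0.06, with Cdkn1b (p27) at 0.49 ± 0.18 and Cdkn1c (p57) at -0.52 ± 0.23, neither past the threshold (adjusted p = 0.148 and 0.287). Downstream of Mos, 7 genes of the MAP kinase pathway and cytostatic factor had a median of -0.12. Rps6ka3, a kinase downstream of MAP kinase, was the only gene of the 7 above 0, at 0.24 ± 0.10 (adjusted p = 0.238, edgeR). The 12 other mitotic kinases and partners had a median of 0.01, led by Incenp (-0.18 ± 0.07, adjusted p = 0.151) and Plk2 (0.24 ± 0.10, adjusted p = 0.272), and the 8 genes of the Greatwall and PP2A branch a median of -0.04, led by Ppp2r1a (-0.15 ± 0.07, adjusted p = 0.306) and Ppp2cb (0.25 ± 0.15, adjusted p = 0.482). In the lists with 1 call, the next gene by p was Mad2l1 (0.16 ± 0.06, adjusted p = 0.185) and Mcm5 (-0.09 ± 0.07, adjusted p = 0.598). Several of these genes were called under some alternatives only. Cdkn1b was called by limma-voom, alone or with ranges of 10 numbers as a random effect, and with no filter, and Cdkn1c with the stage ratio as covariate and without HFD embryos numbered 31 to 70. Incenp was called with ranges of 10 numbers as a random effect, Plk2 and Ppp2r1a with the embryo number as a replicate block, and Mad2l1 with genes counted as covariate and without the tenth of embryos with the fewest genes. Plk3, which the naming rule does not pick by diet and which is named for this call alone, was called with the stage ratio as covariate.

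At the 2-cell stage maternal messages are cleared while the first embryonic genes are transcribed, so members were also set against a stage ratio per embryo. The ratio is the log2 of the summed CPM of 27 genes of early 2-cell transcription, such as the Zscan4 family and Zfp352, minus that of 19 maternal oocyte genes, such as Zp3, Gdf9 and Bmp15. No member is in either list. The ratio was -1.34 ± 0.47 (SD, range -3.44 to 0.48) in HFD and -1.47 ± 0.35 (-3.03 to -0.82) in LFD embryos. The slope per log2 unit of the ratio was fitted with diet as a covariate, and of 14775 genes outside the lists 6197 were called (41.9%), 2986 with a positive slope (20.2%) and 3211 with a negative slope (21.7%). Of the 10 members, 6 were called, 4 positive and 2 negative, so the members' share is set against a background in which a large share of genes is called. The ratio is made from the same libraries as the members' counts, so the points share their depth and composition. It also had a Spearman's rho of -0.34 with the number of genes counted.

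Ccne1 had the steepest positive slope, 0.76 ± 0.07 (SE, adjusted p = 8.4e-18, edgeR), followed by Ccne2 with 0.55 ± 0.07 (adjusted p = 1.5e-12), Plk1 with 0.39 ± 0.06 (adjusted p = 1.0e-07) and Ccna2 with 0.13 ± 0.05 (adjusted p = 0.0124). Cdc25b had the steepest negative slope, -0.99 ± 0.13 (adjusted p = 7.3e-11), and that of Ccnb2 was -0.43 ± 0.10 (adjusted p = 3.0e-04). With genes counted as covariate, the slope of Ccnb2 was -0.79 (adjusted p = 2.4e-11) and that of Ccna2 0.22 (adjusted p = 1.1e-05). Ccne1 (0.83), Ccne2 (0.44) and Cdc25b (-0.75) were called there too. With no filter on low counts Ccna2 was not called (0.12, adjusted p = 0.0654). Both E-type cyclins were thus higher, and Cdc25b lower, in embryos with more 2-cell transcripts for their maternal ones. The other 4 members were not called, Ccnb1 at 0.07 ± 0.06 (adjusted p = 0.34), Wee2 at -0.12 ± 0.05 (adjusted p = 0.055), Aurka at 0.15 ± 0.07 (adjusted p = 0.0682) and Mos at -0.29 ± 0.29 (adjusted p = 0.44). By edgeR, Wee2 was called without the tenth of embryos with the fewest genes (-0.15, adjusted p = 0.0146) and with no filter (-0.15, adjusted p = 0.0416). Mos was called by limma-voom (-0.78, adjusted p = 0.0294).

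**Figure D4:**
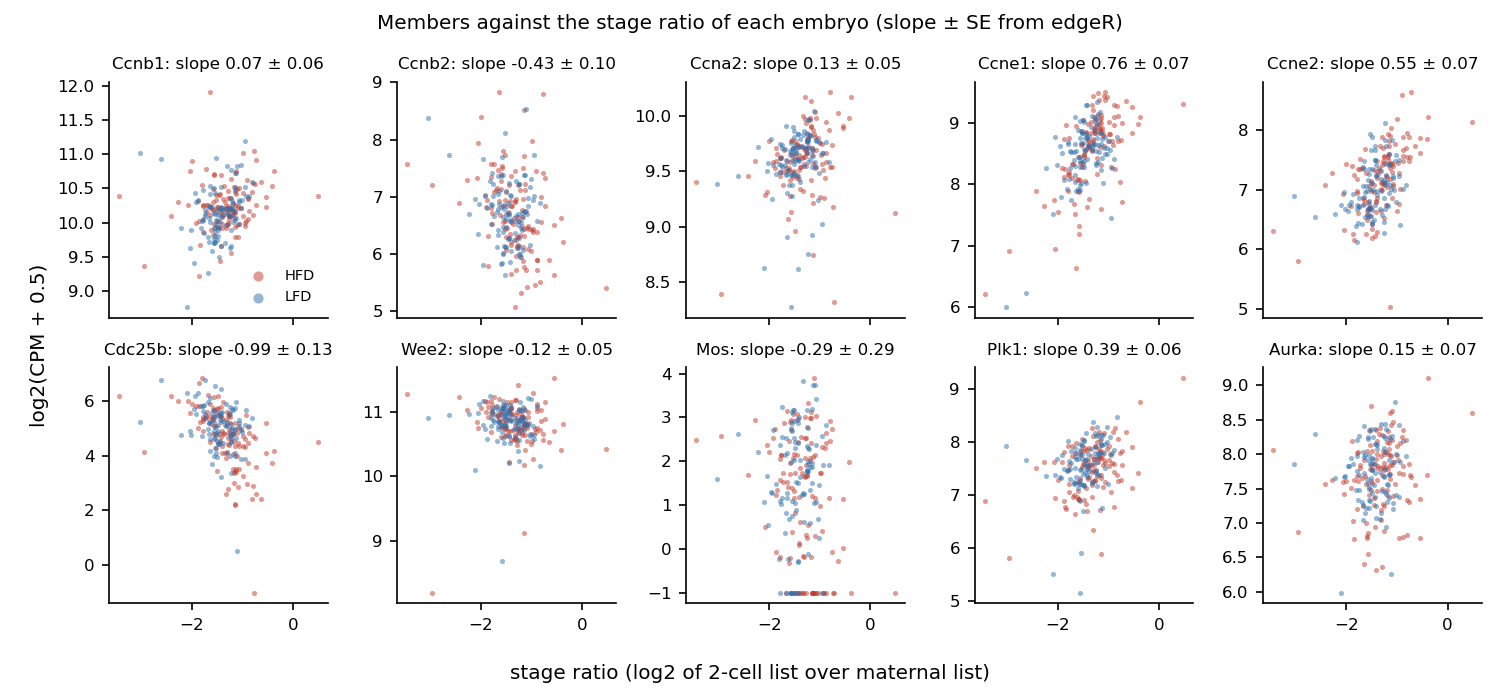
Log2(CPM + 0.5) of each member against the stage ratio of the embryo, HFD in red and LFD in blue, with the fitted slope ± SE above each panel. Ccne1 and Ccne2 rise and Cdc25b falls with the ratio, and a few embryos lie far out at both ends of it.

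The parts of the ratio gave different answers for several members. The levels of the 2 lists rose and fell together over embryos (Spearman's rho 0.41 over all embryos, centred within diets, the lists sharing each library). Against the 2-cell list alone, with 18.8% of all genes called, Ccnb1 (0.59, adjusted p = 6.8e-15, edgeR), Ccnb2 (0.67, adjusted p = 1.2e-05), Ccne2 (0.39, adjusted p = 6.9e-04) and Plk1 (0.37, adjusted p = 6.9e-04) had positive slopes, and Ccne1 (-0.20, adjusted p = 0.155), Cdc25b (0.07, adjusted p = 0.829) and Ccna2 (0.0035, adjusted p = 0.976) were not called. Against the maternal list alone, with the sign turned so that a positive slope means higher at lower maternal levels and with 62.5% of all genes called, Ccne1 had 1.03 (adjusted p = 2.5e-35), Ccne2 0.39 (adjusted p = 1.9e-05), Plk1 0.23 (adjusted p = 0.00714) and Ccna2 0.17 (adjusted p = 0.00298). On that scale Cdc25b had -1.34 (adjusted p = 1.4e-17), Ccnb2 -1.22 (adjusted p = 7.0e-26), Ccnb1 -0.39 (adjusted p = 9.2e-09) and Wee2 -0.32 (adjusted p = 8.4e-07). Ccne2 and Plk1 thus had a positive slope past the threshold on all 3 scales, whereas the direction of Ccnb1 and Ccnb2 depended on which list was used. Without the 2 embryos farthest from the median ratio the same 6 members were called.

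Among the 87 other cell cycle genes, 49 were called by the ratio (56.3%, against 41.9% of all genes), 30 positive and 19 negative. Of the CDKs, cyclins and CDK-binding subunits, Cdk2, Cdk1, Cdk7, Ccnf and Cdk4 had positive slopes, Cdk2 at 0.93 ± 0.09 (adjusted p = 1.6e-19, edgeR) and Cdk1 at 0.47 ± 0.07 (adjusted p = 2.2e-08), and Cks1b a negative one. Of the inhibitors, kinases and phosphatases of the CDK inhibitory sites, Cdkn1c, Cdc25c, Wee1 and Chek2 were positive and Pkmyt1, Cdkn1b and Cdc25a negative. Wee1 (0.42 ± 0.10, adjusted p = 2.6e-04), the somatic relative of Wee2, and Cdc25c (0.40 ± 0.09, adjusted p = 1.9e-04), a relative of Cdc25b, were positive. All 3 called genes of the MAP kinase list were negative, Mapk3 (-0.63 ± 0.07, adjusted p = 3.8e-13), Map2k1 (-0.53 ± 0.08, adjusted p = 9.1e-09) and Fbxo43.

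In the list of the anaphase-promoting complex, Cdc20, its activator in M phase, had 0.79 ± 0.07 (adjusted p = 2.1e-19, edgeR), and Cdc23, Fbxo5, Anapc7 and Anapc15 were also positive, while Anapc16, Anapc10 and Fzr1 (-0.50 ± 0.12, adjusted p = 1.7e-04) were negative. Of the other mitotic kinases and partners, Plk3 (1.44 ± 0.19, adjusted p = 7.8e-11), Plk2 (0.75 ± 0.12, adjusted p = 2.1e-08), Nek2, Incenp, Aurkb and Haspin were positive, and Birc5, Bora, Plk4 and Aurkc negative. Of the spindle checkpoint, securin and separase genes, Espl1 was positive and Pttg1 and Ttk negative. Of the Greatwall and PP2A genes, Ppp2r2a, Ppp2cb and Arpp19 were positive and Mastl and Ppp2r1a negative. Of the licensing genes, Cdc6 (0.47 ± 0.09, adjusted p = 7.3e-06), Gmnn, Mcm7, Mcm5, Mcm4 and Orc1 were positive and Mcm2 negative.

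Whether the slope on the ratio differs between the diets was tested with an interaction term. No member was called by edgeR (0 of 10, with 0 at an unadjusted p under 0.05, and 0 by limma-voom), and 2 of 14820 genes were (0.0135%). The terms of the members, HFD minus LFD, ran from -1.18 ± 0.62 for Mos to 0.18 ± 0.14 for Ccne2. The 95% intervals were -0.10 to 0.46 for Ccne2, -0.23 to 0.40 for Ccne1 and -1.01 to 0.12 for Cdc25b. In each diet by itself Ccne1 (HFD 0.78, LFD 0.70), Ccne2 (0.60 and 0.41), Plk1 (0.42 and 0.31) and Cdc25b (-1.12 and -0.70) were called, and Mos did not pass the filter there. Of all genes, 4787 of 11460 were called in HFD embryos alone and 2102 of 11564 in LFD embryos alone. Ccnb2 was called in HFD (-0.51, adjusted p = 0.00243, edgeR) and not in LFD embryos (-0.31, adjusted p = 0.121), and Ccna2 in neither (0.12, adjusted p = 0.0685, and 0.15, adjusted p = 0.201). Their interaction terms were -0.21 ± 0.22 and -0.04 ± 0.10.

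Over all embryos, a few pairs of members moved together or against each other. Levels were centred within each diet, and Spearman's rho is given as a description without a test, since members share the library, the depth and the scale to the total of each embryo. Of 45 pairs, 8 had a rho of at least 0.4 in size and 25 were under 0.2. The share among all pairs of genes was not computed, so the count of 8 is not read as a trait of the members. The positive pairs were Ccna2 with Ccne1 (0.59), Plk1 with Aurka (0.51), Ccnb1 with Ccnb2 (0.48) and Ccne1 with Ccne2 (0.48). The negative pairs were Ccnb2 with Ccne1 (-0.62), Ccnb2 with Ccna2 (-0.54), Ccne1 with Cdc25b (-0.48) and Ccne2 with Cdc25b (-0.43). All 8 had the same sign in HFD and in LFD embryos, with -0.66 and -0.56 for Ccnb2 with Ccne1 and 0.61 and 0.55 for Ccna2 with Ccne1. Mos had no rho beyond 0.12 in size with another member. Ccne1 also had a rho of -0.79 with the level of the maternal list and Ccnb2 of 0.69, and the number of genes counted had a rho of -0.41 with Ccne2 and of 0.38 with Cdc25b.

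**Figure D5:**
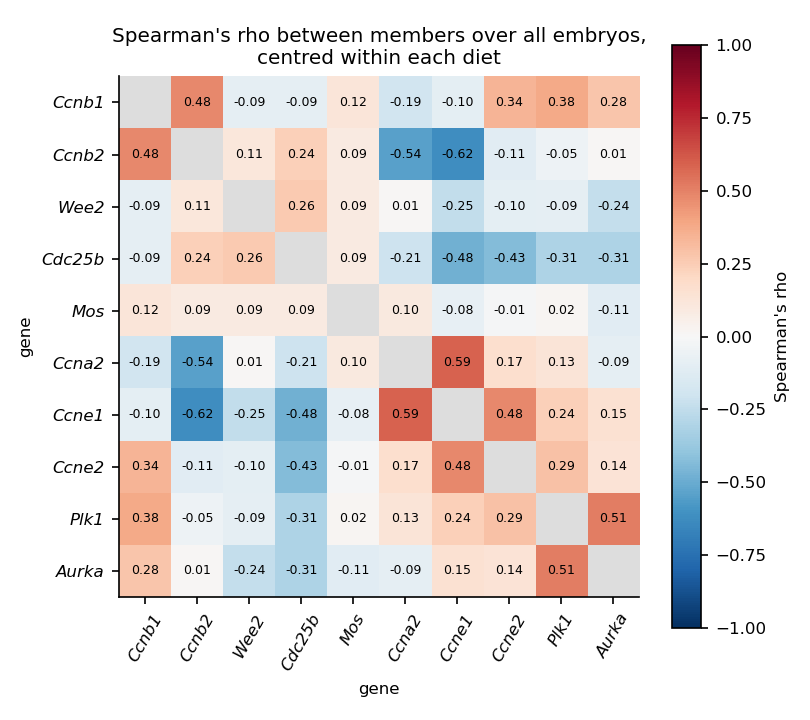
Spearman's rho between members over all embryos after centring within each diet, red for positive and blue for negative values. Ccnb2 and Cdc25b stand against Ccne1, with -0.62 and -0.48, while Plk1 pairs with Aurka at 0.51 and Mos with no other member.

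Outside the lists, 4691 genes whose mean log2 CPM reached 5 were ranked by the same measure. The genes most like Ccnb2 were Mgst3 (rho 0.81) and Eif2b1 (0.80), and those most like Ccne1 were Akap8 and Jmjd6 (both 0.80). Ccne2 was most like Ints8 (0.73), the gene on the opposite strand that shares exon bases with it, and Kpna2 (0.66). Aurka was most like Mdh2 (0.72) and Kif22 (0.70), a spindle motor, and Plk1 most like Tacc3 (0.63), a spindle protein, and Stip1 (0.60). Cdc25b was most like Pla2g4c (0.69) and Rbpms2 (0.66), Ccna2 like Pim3 (0.65) and Eloa (0.63), Wee2 like Accsl and Helq (both 0.64), and Ccnb1 like Rbbp7 and Ywhae (both 0.55). The values of Mos were the lowest, 0.31 with Zfp750 and 0.29 with Psmd1. Exons of other members also met those of genes on the opposite strand, Ccna2 with Exosc9 over 12.5% of its length (49.4 CPM), Plk1 with Gm44985 over 7.09% (30 CPM) and Cdc25b with Spef1 over 2.47% (3.49 CPM).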

How the data were processed

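The file deposited by the authors held raw counts by gene name, with 1 column for each of 221 embryos (122 HFD and 99 LFD). Per the study's methods and the submitters' processing notes, the authors removed adaptors with Trim Galore 0.6.6, aligned paired reads with STAR 2.7.10a to GRCm38 with the mitochondrial sequence of the Staudach line, and counted them over exons. Per the file headers, featureCounts 2.0.3 counted with the strand setting at 2, which a library without strand marks does not meet: reads are lost, and genes on opposite strands exchange reads. Each read of a pair was counted by itself, and 65.8% of the counts above 0 were even. Its default, not changed in the command, skips reads that align to several places. Every column was used.

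Embryos were grouped by the diet in their titles. edgeR 4.0.16 in R 4.3.3 (quasi-likelihood test, TMM, filterByExpr by diet, Benjamini-Hochberg adjustment over all genes, threshold 0.05) gave the diet difference, the slope on the stage ratio with diet as covariate, and their interaction. SEs were computed from the estimate and the F statistic. limma 3.58.1 and DESeq2 1.42.0 served for alternatives. The main edgeR fits of diet, slope and interaction were tested on simulated data, and the alternatives were not. CPM and TPM were computed from the counts, and 0.5 was added before logs. Tables and figures were made in Python 3.11.15 (pandas 2.3.3, matplotlib 3.10.9, scipy 1.17.1). Separate cultures or litters are not named in the labels, so p-values measure the spread between embryos. Depth per embryo is given with the results.

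The members and lists were chosen with earlier results of these data known. All 10 members are named; of each other cell cycle list, every called gene, or the 2 of smallest p where fewer than 2 were called; and for each member the 2 most similar genes outside the lists. H1foo and Dux of the stage lists were not matched in the table, nor was Gsg2, an older name of Haspin, which was. The genes of the stage lists were left out of the counts of called slopes. One gene that this rule names is not reported here.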

Additional observations from a re-analysis of the deposited data

Results flagged for a closer look

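The slope on the stage ratio differed between the diets, by edgeR's interaction term, for 2 genes, neither of them a member, which are named because of that call. Ube2s, the enzyme that extends ubiquitin chains for the anaphase-promoting complex, had a term of -0.99 ± 0.20 (SE, adjusted p = 0.0159), with a slope of 0.52 ± 0.18 in LFD and of -0.46 ± 0.10 in HFD embryos and a median of 67.3 CPM. Eif1ad had a term of -0.70 ± 0.15 (adjusted p = 0.034), with 0.62 ± 0.13 in LFD and -0.08 ± 0.08 in HFD embryos. Neither was called by limma-voom (adjusted p = 0.578 for Ube2s and 0.504 for Eif1ad) or, with edgeR, without the tenth of embryos with the fewest genes (0.385 and 0.205). Without HFD embryos numbered 31 to 70, Ube2s was called (adjusted p = 0.0378) and Eif1ad was not (0.126). The cause was not tested.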

How the results depend on the processing

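By diet, 1 member, 4 wider-list genes and 314 of all genes were called. The embryo numbers occur in both diets for 94 numbers, but same-numbered embryos did not deviate together (r from -0.316 to 0.297, median 0.00623, 17 over 0.1, and 1 best with its own number). The median over all pairs of an HFD and an LFD embryo was 0.000225, and their share over 0.1 was not computed. Whether a number stands for a shared date cannot be told from these values. With the number as a replicate block in limma-voom, 2 members (Ccne2 and Cdc25b, -0.42, adjusted p = 0.0132), 7 wider-list genes and 806 of 14439 genes were called. That fit held only the 188 embryos whose number occurs in both diets, so both the model and the embryos differ from the main fit. Without the tenth of embryos with the fewest genes, 2 members (Ccne2 and Ccnb1, 0.17, adjusted p = 0.0428) and 573 genes were called. No member was called (0) by limma-voom without a block, without HFD embryos numbered 31 to 70 (2 wider-list genes, 175 in all), with the stage ratio as covariate, or with ranges within diets as a random effect, an alternative added after seeing the data (2 and 80). With no filter, 7 wider-list genes and 7030 of 45512 genes were called. Over the members, 117 of 130 diet values kept direction and side of the threshold, which an uncalled member does by staying uncalled with the same sign. Ccne2, the member called in the main fit, did so in 9 of 13 alternatives. The sign turned for Aurka under the block (0.01), without the fewest-genes embryos (0.04) and with macrophage markers as covariate (0.02, added after seeing the data), for Wee2 under the block (-0.03), for Ccnb2 by limma-voom (-0.00053) and with ranges within diets (-0.00041), and for Ccne1 with the stage ratio (-0.005), none of them called.

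For the stage slope, 4 to 8 members were called against 6. All genes called were 2783 with the 2-cell list alone, 2102 in LFD embryos alone (fewer embryos and 11564 genes) and 10139 with no filter, against 6197. Signs turned with the 2-cell list alone for Ccnb2 (0.67), Ccne1 (-0.20), Cdc25b (0.07), Wee2 (0.17) and Mos (0.20), and for Ccnb1 with the maternal list alone (-0.39) and with genes counted as covariate (-0.04). Of 88 values, 71 kept direction and side. For the interaction, all genes called were 0 by limma-voom, 0 without the fewest-genes embryos and 1 without HFD embryos numbered 31 to 70, against 2. Its sign turned for Plk1 by limma-voom (-0.01), for Ccna2 without the fewest-genes embryos (0.06) and without HFD embryos numbered 31 to 70 (0.07), and for Wee2 without the latter (0.04). The cause of these changes was not tested. Depth limits Mos most, at a median of 16 counts.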

Other observations

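A few embryos stood at the end of the range for several members at once, and they are given as values. HFD embryo 17 had the highest Ccnb1 (3828 CPM) and the highest Ccnb2 (453 CPM). HFD embryo 48, with 12015 genes counted, had Ccnb2 at 445 CPM and no count of Cdc25b. HFD embryo 88 had the highest Aurka (551 CPM), Plk1 at 431 CPM and Ccna2 at 1153 CPM, and HFD embryo 64 had the highest Plk1 (593 CPM) at the highest stage ratio (0.48) and with 12918 genes counted.

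At the other end, LFD embryo 26 had the lowest Ccnb1 (437 CPM) and the lowest Aurka (62.9 CPM), with Plk1 at 44.9 CPM and 14707 genes counted. LFD embryo 73 had the lowest Ccna2 (309 CPM) and the lowest Plk1 (35.1 CPM), with Wee2 at 409 CPM. HFD embryo 28 had the lowest Wee2 (292 CPM) and was among the 3 lowest embryos for Ccna2, Ccne2 and Plk1, at a stage ratio of -2.95.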
